A study of Rattus norvegicus with 30 samples.

Results

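The mitochondrial carrier family *Slc25* was followed in the kidneys of male Sprague-Dawley rats that were maintained on a 0.4% NaCl diet (LS) or switched to a 4.0% NaCl diet for 14 d (HS14) or 21 d (HS21). Members were all protein-coding genes whose symbol was *Slc25a* followed by a number. There were 44 such genes among the 32545 genes of the count table, 22293 of which were protein coding, and 38 were kept because they had at least 10 counts in at least 5 of the 30 libraries. PolyA mRNA of the right kidney cortex (Cx) and outer medulla (OM) was sequenced in 5 libraries per tissue and diet, giving 6 groups, and all rats were of the same strain with no genetic change or drug stated. The comparison asks how the HS diet changes the transcripts through which metabolites enter and leave mitochondria in each tissue. The study's methods give 5 kidneys per group, each divided into Cx and OM, the labels do not tie a library to a rat, and *P*-values measure the spread between these libraries. The 6 genes that were not kept reached at most 7 counts (*Slc25a31*), 5 counts (*Slc25a18*), 4 counts (*Slc25a47*), 2 counts (*Slc25a54*), 1 count (*Slc25a22*) and 1 count (*Slc25a41*) in any library. Among them are the glutamate carriers *Slc25a18* and *Slc25a22*, and *Slc25a22* was at 0 in 28 libraries.

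The inner mitochondrial membrane is closed to most metabolites, and the proteins of this family are the small exchangers that carry them across. They bring in ADP, phosphate, acylcarnitines, glutamate, ornithine, iron and cofactors, and they bring out ATP, aspartate, citrate and malate. The proximal tubule, which makes up most of the renal cortex, relies on oxidation of fatty acids and amino acids, makes glucose and ammonia, and is packed with mitochondria. The thick ascending limb, which dominates the outer medulla, is also rich in mitochondria. In the following, levels are given as FPKM, the deposited fragment count scaled by transcript length and library size, which can be compared between genes. Differences are log2 ratios ± SE from the counts by edgeR's quasi-likelihood test, with Benjamini-Hochberg adjusted *P* over all genes tested, and "raised" or "lowered" means an adjusted *P* below 0.05.

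Libraries held from 5408126 to 21842843 counts in genes. Markers matched the tissue labels, except that *Slc34a1* in OM LS replicate 2 reached the Cx range. The sodium-phosphate transporter *Slc34a1* ranged from 1630 to 2704 FPKM in Cx and from 49.1 to 1712 FPKM in OM. The OM library next below OM LS replicate 2 was at 574 FPKM. The thick ascending limb transporter *Slc12a1* ranged from 59.0 to 118 FPKM in Cx and from 470 to 1995 FPKM in OM, without overlap. Libraries that stood apart were OM LS replicate 2, OM HS14 replicate 10 and Cx HS14 replicate 10. The first had a proximal tubule marker sum of 5854 FPKM and 79.7 FPKM of the distal convoluted tubule gene *Slc12a3*, against at most 11.3 FPKM in the other OM libraries. OM HS14 replicate 10 was the shallowest library, and its *Slc25* sum was 1534 FPKM against at least 2215 FPKM elsewhere in OM. By the study's mapping summary it also had the lowest share of mapped reads of all libraries. Its share of exonic bases was the lowest and its share of intronic bases the highest, and their part in its values was not tested. Cx HS14 replicate 10 had the lowest proximal tubule marker sum of its group, 4195 FPKM. The counts of called members that rest on these libraries are given below with and without them. So are the *Slc25* sums and the *Slc25a12* to *Slc25a13* ratio of Cx HS14. Other group means include these libraries. OM LS replicate 5 lay at the other end of its group. It had the lowest proximal tubule marker sum of all libraries, 540 FPKM, and the highest thick ascending limb marker sum, 8661 FPKM.

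A few members carried most of the family's transcripts. In Cx LS the ADP/ATP carrier *Slc25a5* averaged 808 ± 33.2 FPKM (SD, n = 5), the phosphate carrier *Slc25a3* 601 ± 15.9, the dicarboxylate carrier *Slc25a10* 297 ± 21.7, the second ADP/ATP carrier *Slc25a4* 226 ± 7.40 and the oxoglutarate carrier *Slc25a11* 218 ± 9.93. These 5 made up 66.5% ± 0.908 of the summed FPKM of the 38 members. The ranges of *Slc25a4* (215 to 235) and *Slc25a11* (207 to 233) overlapped, so their order is within the spread, whereas *Slc25a5* and *Slc25a3* did not overlap any other member. Next came the glutathione carrier *Slc25a39* at 156 ± 8.05, the ATP-Mg/phosphate carrier *Slc25a23* at 111 ± 3.51 and the aspartate/glutamate carrier *Slc25a13* at 103 ± 7.08 FPKM, the last pair again with overlapping ranges. At the low end stood the uncoupling protein-like *Slc25a27* at 0.251 ± 0.0368 and the oxodicarboxylate carrier *Slc25a21* at 0.879 ± 0.386 FPKM. The summed FPKM of the family was 3233 ± 54.4 in Cx LS, 3112 ± 161 in Cx HS14 and 2708 ± 151 in Cx HS21. In OM the sums were 2626 ± 343 in LS, 2536 ± 577 in HS14 and 2641 ± 181 in HS21. Without replicate 2 the OM LS sum was 2494 ± 201 (n = 4), and without replicate 10 the OM HS14 sum was 2786 ± 162 (n = 4). The Cx HS14 sum without its replicate 10 was 3132 ± 179 (n = 4).

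After 21 d of the HS diet, 18 of the 38 members were lowered and 7 were raised in the Cx. The lowered share was 47.4%, where 20.5% of all genes tested were lowered. The raised share of 18.4% was near the 18.9% of all genes. The median log2 ratio of the members was -0.20 and that of all genes 0.00. In 15 members the 5 HS21 libraries did not overlap the 5 LS libraries, 11 below and 4 above, and 26.7% of all genes were apart in this way. Scaling each library by its total count moved the median of all genes to 0.13, with 4401 genes raised and 1653 lowered in place of 2702 and 2936, and the members to 9 raised and 10 lowered. The 8 lowered calls that this scaling removed were those of *Slc25a3*, *Slc25a5*, *Slc25a10*, *Slc25a36l1*, *Slc25a40*, *Slc25a42*, *Slc25a45* and *Slc25a46*. The plot of log2 ratios by substrate group shows the members side by side in the 4 diet comparisons.

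**Figure D1:**
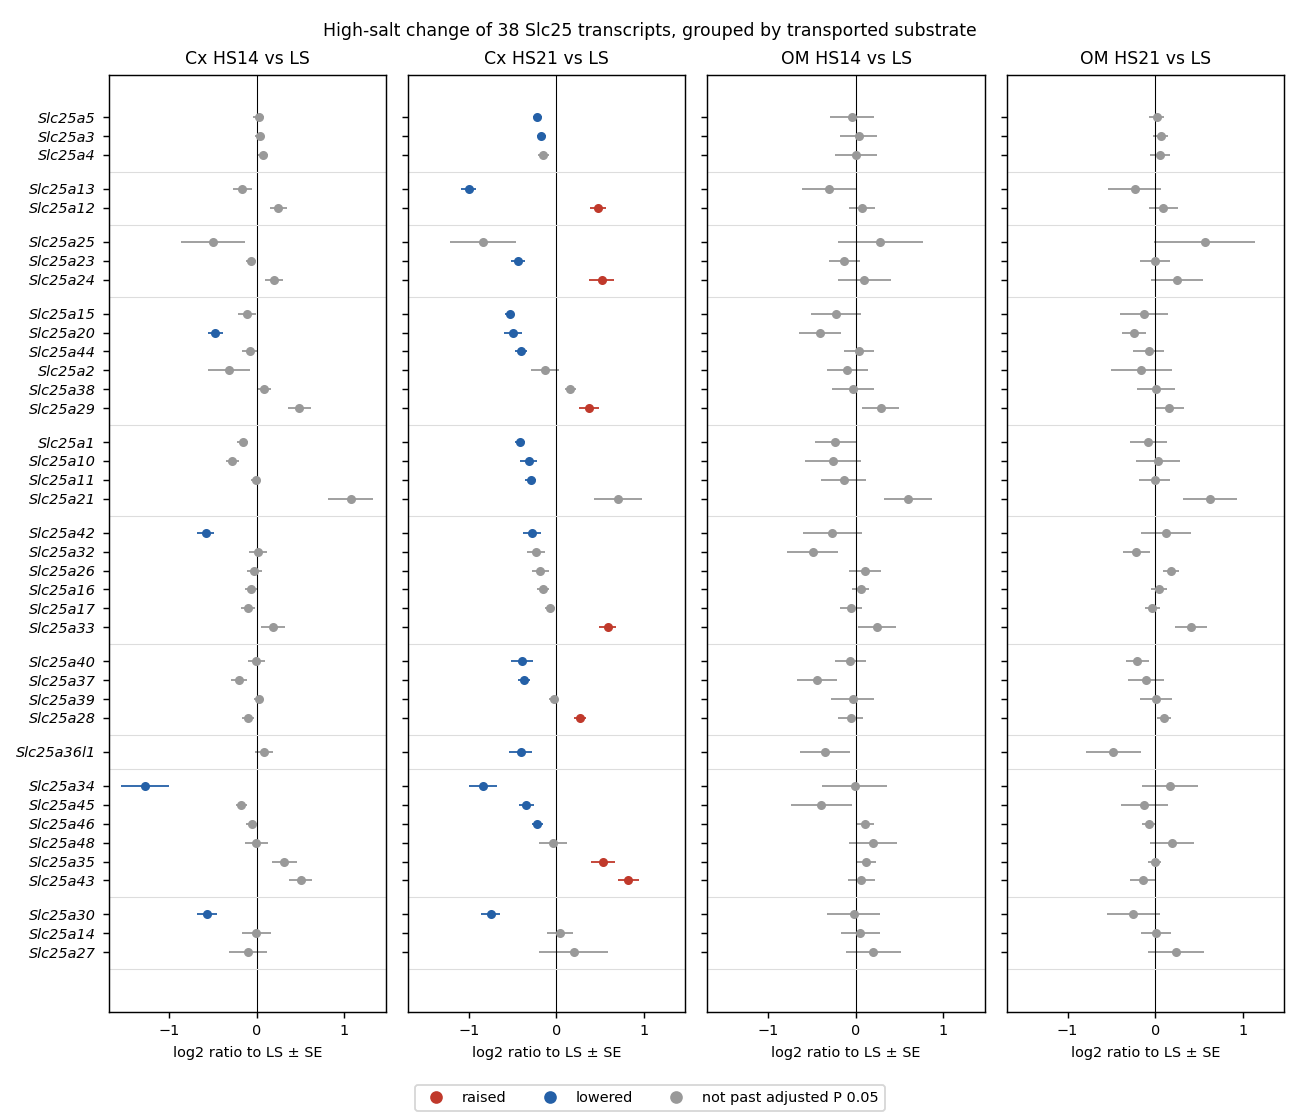
Log2 ratio to LS (x axis, ± SE) of each of the 38 kept *Slc25* members (rows, grouped by transported substrate) in Cx and OM after 14 d and 21 d of the HS diet, with raised members in red, lowered members in blue and others in grey. In Cx HS21 18 members are blue and 7 are red, in Cx HS14 4 are blue, and no member is colored in the OM panels.

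Cell type markers moved in the same comparison. In Cx HS21, 9 of 10 proximal tubule markers were lowered and 0 raised, and their summed FPKM ranged from 3501 to 4845 against 5764 to 6304 in Cx LS. All 9 leukocyte markers were raised, with summed FPKM of 826 to 2294 against 601 to 708. Of the distal nephron markers, 4 of 6 for the thick ascending limb (1 lowered), 3 of 3 for the distal convoluted tubule and 7 of 8 for the collecting duct were raised. Podocyte markers were raised in 3 of 4, endothelium markers in 2 of 5 and adipocyte markers in 1 of 2. Erythroid markers were raised in 0 of 4, with a median log2 ratio of 1.11. In bulk tissue, fewer cells of a type and less RNA per cell cannot be told apart, and the part of the cell makeup in the *Slc25* differences was not tested.

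The largest called fall in Cx HS21 was that of *Slc25a13*. It encodes citrin, a calcium-regulated carrier that exports aspartate from the matrix in exchange for glutamate and a proton. This exchange is a step of the malate-aspartate shuttle, which moves reducing equivalents from NADH into mitochondria, and of the urea cycle. *Slc25a13* (ENSRNOG00000009957, chr4:31608269-31730386 in Rnor_6.0, minus strand) measured 97.7, 104, 111, 107 and 94.0 FPKM in the 5 Cx LS libraries, 98.9, 95.1, 108, 89.4 and 66.3 in Cx HS14 and 51.5, 48.3, 62.5, 49.1 and 44.7 in Cx HS21. Every HS21 library was below every other Cx library. The log2 ratio was -1.0 ± 0.08 (adjusted *P* = 1.56e-05) for HS21 against LS, a 2.0-fold lower level, and -0.83 ± 0.12 (adjusted *P* = 0.00458) for HS21 against HS14. The HS14 change was -0.17 ± 0.10 (adjusted *P* = 0.464). Only the HS14 library of replicate 10, at 66.3 FPKM, lay near the HS21 range. The gene overlaps the annotated *LOC680384*, and the libraries do not record strand, so reads in the shared stretch cannot be assigned to either.

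Its paralog *Slc25a12*, which encodes aralar, the other aspartate/glutamate carrier, went the opposite way. *Slc25a12* (ENSRNOG00000022922, chr3:57882370-57957346, minus strand) measured 16.8, 18.4, 18.8, 15.8 and 14.0 FPKM in Cx LS, 18.8, 17.8, 21.3, 18.4 and 22.7 in Cx HS14 and 22.8, 24.9, 25.5, 20.6 and 22.0 in Cx HS21. The HS21 libraries were all above the LS libraries, and the HS14 libraries overlapped both. The log2 ratio at HS21 was 0.47 ± 0.09 (adjusted *P* = 0.00179). The ratio of *Slc25a12* to *Slc25a13* FPKM, taken within each library, was 0.163 ± 0.0136 in Cx LS, 0.225 ± 0.0660 in Cx HS14 and 0.456 ± 0.0468 in Cx HS21. Without replicate 10, which stood at 0.342, the Cx HS14 ratio was 0.195 ± 0.00820 (n = 4). In OM this ratio ranged from 0.192 to 1.14 over the 15 libraries with a median of 0.522, so the 5 Cx HS21 libraries, at 0.408 to 0.516, lay within the OM range. The lowest OM ratio was that of OM LS replicate 2 and the highest that of OM LS replicate 5.

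The 250 bases before the annotated start of both genes are shown because these paralogs, which do the same exchange, moved apart. They are RefSeq sequences of the GRCr8 build, written 5′ to 3′ on the gene's strand, with CCAAT boxes in capitals. The *Slc25a12* window is chr3:76599537-76599786, minus strand, with a GC content of 74%. The *Slc25a13* window is chr4:35328361-35328610, minus strand, with a GC content of 66%.
Slc25a12: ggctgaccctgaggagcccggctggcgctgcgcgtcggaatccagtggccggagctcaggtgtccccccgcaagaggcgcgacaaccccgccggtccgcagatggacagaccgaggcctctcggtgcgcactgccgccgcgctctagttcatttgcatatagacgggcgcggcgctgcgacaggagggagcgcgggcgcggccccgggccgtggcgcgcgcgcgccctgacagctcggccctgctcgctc
Slc25a13: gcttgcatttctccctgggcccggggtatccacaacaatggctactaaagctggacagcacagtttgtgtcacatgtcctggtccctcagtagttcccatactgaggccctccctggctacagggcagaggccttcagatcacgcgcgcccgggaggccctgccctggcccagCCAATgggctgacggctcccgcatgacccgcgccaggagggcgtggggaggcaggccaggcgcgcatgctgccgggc
The *Slc25a13* window holds a single CCAAT box and the *Slc25a12* window none. Neither holds AAGGTCA, the binding sequence of estrogen-related receptors, TGACGTCA, the cAMP response element, or GGGCGG, the GC box, on either strand. A match is a description of the letters and no match says nothing about binding.

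Of the 8 enzymes of the malate-aspartate, citrate and glycerol phosphate shuttles, 5 were lowered and 1 raised in Cx HS21. ATP citrate lyase (*Acly*), which splits exported citrate, changed by -0.66 ± 0.08 (adjusted *P* = 8.71e-05), malic enzyme (*Me1*) by -0.66 ± 0.11 (adjusted *P* = 0.000781) and glycerol phosphate dehydrogenase (*Gpd1*) by -0.53 ± 0.09 (adjusted *P* = 0.000822). The 8 ratios ran from -0.66 to 0.44, with a median of -0.29. The named genes were those with the largest changes and belong to the citrate and glycerol phosphate shuttles. The counts do not separate the malate-aspartate enzymes from these.

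**Figure D2:**
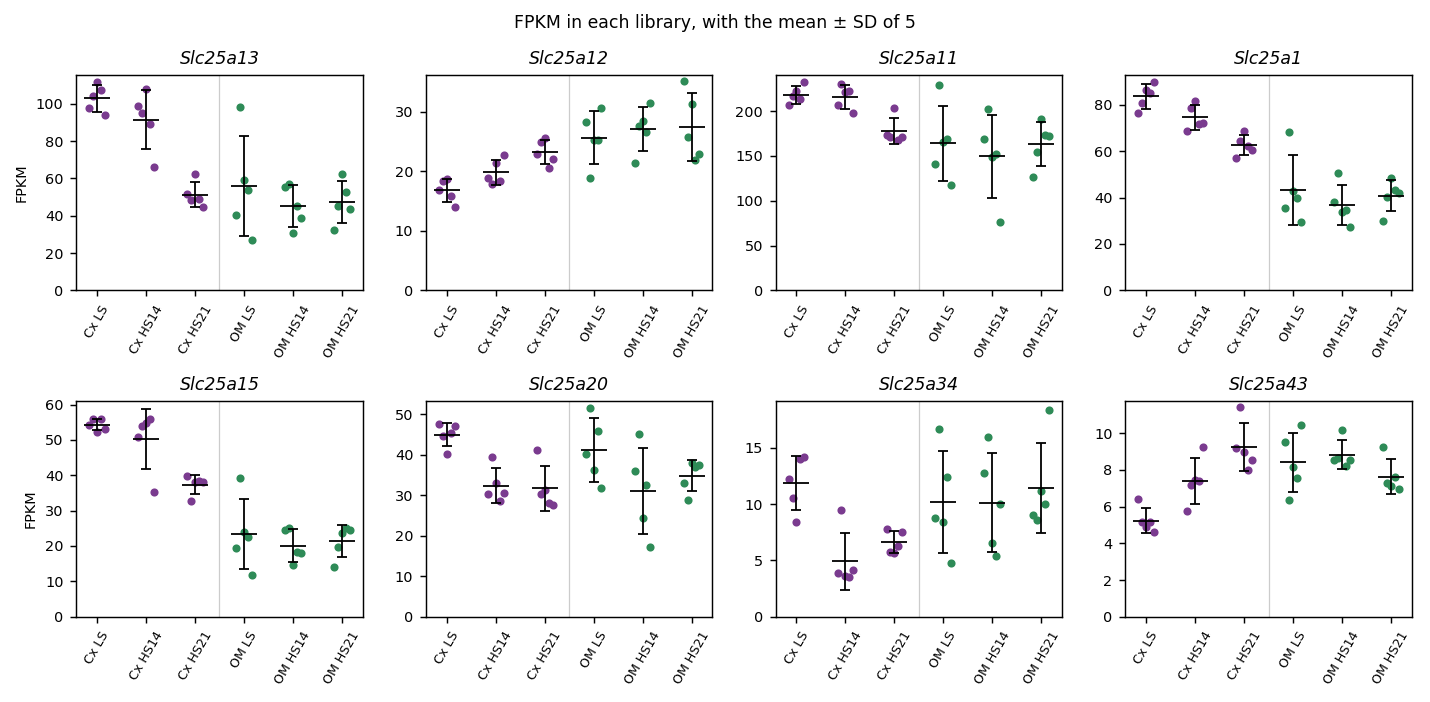
FPKM (y axis, linear from 0) of 8 *Slc25* members in each of the 30 libraries, by tissue and diet (x axis), with Cx points in purple, OM points in green and black bars at the mean ± SD of 5 libraries. In Cx *Slc25a13* falls from 103 to 51.2 FPKM between LS and HS21 and *Slc25a12* rises from 16.8 to 23.2, while the OM groups of each gene overlap.

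The carriers of tricarboxylic and dicarboxylic acids were lowered in 3 of 4 members in Cx HS21. The citrate carrier *Slc25a1*, which exports citrate for lipid synthesis, measured 76.2, 80.7, 86.4, 84.8 and 89.8 FPKM in Cx LS and 57.2, 64.5, 68.5, 62.1 and 60.6 in Cx HS21, with no overlap (-0.41 ± 0.06, adjusted *P* = 0.000319). The oxoglutarate carrier *Slc25a11*, which exchanges malate for oxoglutarate as the second carrier of the malate-aspartate shuttle, measured 207, 217, 222, 214 and 233 in Cx LS and 173, 171, 204, 168 and 172 in Cx HS21, again without overlap (-0.29 ± 0.06, adjusted *P* = 0.00227). The dicarboxylate carrier *Slc25a10*, which exchanges malate or succinate for phosphate, overlapped between the groups, with 272 to 325 in LS and 197 to 293 in HS21 (-0.31 ± 0.10, adjusted *P* = 0.0206). Its call was lost without Cx LS replicate 5 or Cx HS21 replicate 14 (adjusted *P* up to 0.0511). *Slc25a21*, which carries the oxoadipate of lysine breakdown, was low and missed the threshold at 0.71 ± 0.28 (adjusted *P* = 0.0611). It was called raised under total-count scaling, with DESeq2, with all 15 Cx libraries in one fit or without Cx LS replicate 4. So both carriers of the malate-aspartate shuttle that were high in the Cx, *Slc25a13* and *Slc25a11*, were lowered, and the less abundant *Slc25a12* was raised.

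Among the carnitine and amino acid carriers, 3 of 6 were lowered and 1 raised. The carnitine/acylcarnitine carrier *Slc25a20*, through which long-chain fatty acids reach beta-oxidation, measured 47.7, 44.6, 40.3, 45.4 and 47.1 FPKM in Cx LS, 30.4, 39.5, 33.0, 28.6 and 30.5 in Cx HS14 and 41.3, 30.4, 31.4, 28.0 and 27.7 in Cx HS21. All HS14 libraries, and all HS21 libraries except replicate 11, lay below the LS libraries, and the HS groups overlapped each other. The ratios were -0.47 ± 0.08 (adjusted *P* = 0.0170) at HS14 and -0.50 ± 0.10 (adjusted *P* = 0.00308) at HS21, and between the HS groups -0.03 ± 0.12 (adjusted *P* = 0.901). The other genes of carnitine-linked fatty acid uptake were lowered in 4 of 5 at HS21. They were led by the carnitine transporter *Slc22a5* at -0.85 ± 0.09 (adjusted *P* = 5.99e-05), followed by *Cpt1a* at -0.55 ± 0.14 (adjusted *P* = 0.00767) and *Cpt2* at -0.48 ± 0.10 (adjusted *P* = 0.00381).

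The ornithine carrier *Slc25a15*, which returns ornithine to the matrix for the urea cycle and for ornithine aminotransferase, measured 54.3, 55.9, 52.3, 55.9 and 53.1 FPKM in Cx LS and 39.7, 32.8, 38.0, 38.4 and 38.0 in Cx HS21. The groups did not overlap, and the ratio was -0.53 ± 0.05 (adjusted *P* = 3.77e-05). The branched-chain amino acid carrier *Slc25a44* was lowered from 16.0 ± 1.06 to 12.1 ± 1.02 FPKM (-0.40 ± 0.07, adjusted *P* = 0.000865). The basic amino acid carrier *Slc25a29* was raised from 4.90 ± 0.731 to 6.35 ± 0.740 (0.38 ± 0.11, adjusted *P* = 0.0204), a call lost without Cx LS replicate 4 (adjusted *P* = 0.0508). The glycine carrier *Slc25a38* (0.16 ± 0.06, adjusted *P* = 0.0541) and the second ornithine carrier *Slc25a2* (-0.13 ± 0.16, adjusted *P* = 0.551) did not pass the test. *Slc25a38* was called raised under RLE scaling, total-count scaling or without Cx HS21 replicate 11. Of 9 matrix and cytosolic enzymes that use the substrates of these carriers, 3 were lowered and 3 raised. The largest changes were glutamate dehydrogenase (*Glud1*) at -0.87 ± 0.09 (adjusted *P* = 5.10e-05), phosphoenolpyruvate carboxykinase (*Pck1*) at -0.82 ± 0.15 (adjusted *P* = 0.00155) and arginase of the mitochondrial type (*Arg2*) at 0.61 ± 0.21 (adjusted *P* = 0.0328).

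The ADP/ATP and phosphate carriers, which serve oxidative phosphorylation, had small log2 ratios. *Slc25a5* measured 814, 822, 852, 785 and 766 FPKM in Cx LS and 689.8, 698, 743, 686 and 642 in Cx HS21 (-0.22 ± 0.05, adjusted *P* = 0.00628). *Slc25a3* measured 613, 614, 612, 585 and 583 in Cx LS and 524, 543, 575, 525 and 491 in Cx HS21 (-0.17 ± 0.05, adjusted *P* = 0.0191). In both genes the 5 HS21 libraries lay below the 5 LS libraries. *Slc25a4* overlapped, at 215 to 235 in LS and 177 to 232 in HS21, and did not pass the test (-0.15 ± 0.06, adjusted *P* = 0.0879, 95% interval -0.29 to -0.01). Without Cx HS21 replicate 13, *Slc25a4* was called lowered. Under total-count scaling the calls of *Slc25a5* and *Slc25a3* were lost. Genes of mitochondrial content were lowered in 5 of 8 and raised in 0, with a median of -0.23 and the largest changes in *Cycs* (-0.39 ± 0.09, adjusted *P* = 0.00547) and *Hspd1* (-0.36 ± 0.04, adjusted *P* = 0.000119). Of the 13 protein genes of the mitochondrial genome, 1 was lowered (*Mt-nd4*, -0.49 ± 0.14, adjusted *P* = 0.0180) and their median was 0.08. The mitochondrial genome took 13.7% ± 0.572 of counts in Cx LS and 15.4% ± 1.43 in Cx HS21.

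The calcium-regulated ATP-Mg/phosphate carriers, which adjust the adenine nucleotide pool of the matrix, split. *Slc25a23*, the main one in the Cx, was lowered from 111 ± 3.51 to 81.8 ± 10.8 FPKM (-0.44 ± 0.08, adjusted *P* = 0.00104). The less abundant *Slc25a24* was raised from 3.28 ± 0.409 to 4.68 ± 0.943 (0.52 ± 0.14, adjusted *P* = 0.0128). *Slc25a25* varied widely, with a coefficient of variation of 37.5% in Cx LS, exceeded among the members only by *Slc25a21* at 43.9%. It measured 43.3, 60.1, 87.0, 74.2 and 119 FPKM in Cx LS and 35.7, 25.9, 23.7, 34.6 and 93.7 in Cx HS21, and its ratio did not pass the test (-0.84 ± 0.38, adjusted *P* = 0.0979). In Cx HS21, replicate 15 stood at 93.7 FPKM, above every other library of its group. Without replicate 15, *Slc25a25* was called lowered. Of 8 calcium and iron transport genes outside the family, 3 were lowered and 1 raised, with the sodium-calcium-lithium exchanger *Slc8b1* at 0.73 ± 0.13 (adjusted *P* = 0.00107) and *Letm1* at -0.43 ± 0.05 (adjusted *P* = 0.000134).

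Among the cofactor and nucleotide carriers, the coenzyme A carrier *Slc25a42* was lowered and the pyrimidine nucleotide carrier *Slc25a33* raised, and 4 did not pass the test. *Slc25a42* measured 26.8, 24.9, 24.3, 28.0 and 32.3 FPKM in Cx LS, 17.4, 22.2, 17.4, 18.0 and 15.9 in Cx HS14 and 24.8, 18.6, 26.0, 20.3 and 22.1 in Cx HS21. Its lowest group was HS14 (-0.58 ± 0.10, adjusted *P* = 0.0144), and the HS21 ratio of -0.28 ± 0.10 (adjusted *P* = 0.0452) was lost with RLE scaling, total-count scaling, no count filter or any of 6 libraries left out. *Slc25a33* rose from 8.30 ± 0.909 to 12.5 ± 1.20 FPKM without overlap (0.59 ± 0.10, adjusted *P* = 0.000760). The iron carriers, mitoferrins, also split. *Slc25a37* was lowered (-0.37 ± 0.07, adjusted *P* = 0.00152) and *Slc25a28* raised (0.27 ± 0.07, adjusted *P* = 0.00963). Of the glutathione carriers, the abundant *Slc25a39* was at 156 ± 8.05 and 152 ± 7.98 FPKM, with a 95% interval of the log2 ratio of -0.14 to 0.08. Its low relative *Slc25a40*, which overlaps the protein-coding *Rundc3b*, was lowered (-0.39 ± 0.13, adjusted *P* = 0.0281), a call lost in 4 of 10 fits that left out 1 library.

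The kidney mitochondrial carrier *Slc25a30*, an uncoupling protein-like member first described in kidney, measured 61.9, 67.3, 58.1, 68.4 and 59.3 FPKM in Cx LS, 40.1, 56.3, 36.9, 35.8 and 42.4 in Cx HS14 and 42.8, 37.2, 45.0, 30.1 and 31.6 in Cx HS21. All HS21 libraries lay below the LS libraries (-0.75 ± 0.11, adjusted *P* = 0.000366). The other uncoupling protein-like members, *Slc25a14* (0.04 ± 0.15, adjusted *P* = 0.848) and *Slc25a27* (0.20 ± 0.40, adjusted *P* = 0.725), were low and did not pass the test. Among family genes with other symbols, *Ucp2*, an uncoupling protein that is high in immune cells, was raised by 1.41 ± 0.21 (adjusted *P* = 0.000408) and the outer membrane insertase *Mtch2* was lowered (-0.39 ± 0.05, adjusted *P* = 0.000147). *Ucp2* moved beside the 9 leukocyte markers given above, and their part in it was not tested.

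Of the members whose substrates are less settled, *Slc25a34* and *Slc25a43* changed most. *Slc25a34* (ENSRNOG00000021526, chr5:160176124-160179978, minus strand) measured 12.2, 10.5, 8.40, 14.0 and 14.1 FPKM in Cx LS, 3.87, 9.47, 3.58, 3.54 and 4.13 in Cx HS14 and 7.80, 5.78, 5.65, 6.32 and 7.50 in Cx HS21. The 5 HS21 libraries were below the 5 LS libraries, and the HS14 libraries were lower still except for replicate 7 at 9.47 FPKM. The ratio was -1.28 ± 0.27 (adjusted *P* = 0.0374) at HS14 and -0.84 ± 0.16 (adjusted *P* = 0.00159) at HS21. *Slc25a43* (ENSRNOG00000012756, chrX:123350346-123384846, plus strand) went up, from 6.41, 5.15, 4.87, 5.14 and 4.62 FPKM in Cx LS to 9.19, 11.4, 8.95, 7.99 and 8.56 in Cx HS21. This was a 1.77-fold higher level and the largest called rise among the 38 members (0.82 ± 0.12, adjusted *P* = 0.000351). No HS21 library overlapped LS. Also raised was *Slc25a35* (0.53 ± 0.14, adjusted *P* = 0.00962), which overlaps *Rangrf*. *Slc25a45* (-0.34 ± 0.09, adjusted *P* = 0.00808), the outer membrane protein *Slc25a46* (-0.22 ± 0.06, adjusted *P* = 0.0132), which overlaps *Sap130*, and *Slc25a36l1* (-0.41 ± 0.13, adjusted *P* = 0.0239) were lowered. The call of *Slc25a36l1* was lost without Cx LS replicate 2 or Cx HS21 replicate 14 or 15 (adjusted *P* up to 0.0616). The annotation places the row named *Slc25a36l1* on chromosome 8, where RefSeq places *Slc25a36*, so which paralog it measures is uncertain.

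The promoter windows of *Slc25a34* and *Slc25a43* are shown as those of the members with the second largest called fall and the largest called rise. In *Slc25a34* (chr5:159219893-159220142, minus strand, GRCr8) the capitals mark TGACCTT, the reverse complement of AAGGTCA, then CCGCCC, the reverse complement of GGGCGG, and ATTGG, the reverse complement of CCAAT. The *Slc25a43* window (chrX:120842931-120843180, plus strand) holds none of the 4 motifs.
Slc25a34: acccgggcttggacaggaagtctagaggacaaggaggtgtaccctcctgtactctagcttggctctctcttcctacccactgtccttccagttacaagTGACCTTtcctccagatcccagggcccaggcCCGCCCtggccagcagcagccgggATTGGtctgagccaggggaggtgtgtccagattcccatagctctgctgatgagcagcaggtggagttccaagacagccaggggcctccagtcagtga
Slc25a43: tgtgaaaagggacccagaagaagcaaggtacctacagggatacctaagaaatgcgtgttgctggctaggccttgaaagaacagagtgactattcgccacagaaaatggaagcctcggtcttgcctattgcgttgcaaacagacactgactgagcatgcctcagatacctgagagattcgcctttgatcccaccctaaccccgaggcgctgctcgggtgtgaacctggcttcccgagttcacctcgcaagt
Promoter windows were matched for 32 of the 38 members. AAGGTCA occurred in 1 of these 32 (3.12%), *Slc25a34*, and in 3.77% of all 27457 promoters. TGACGTCA occurred in 2 (6.25%), *Slc25a25* and *Slc25a33*, against 1.70%. CCAAT occurred in 20 (62.5%) against 34.3%, and GGGCGG in 19 (59.4%) against 32.4%. The 27457 promoters were not filtered by coding type or expression, whereas the members were protein coding and kept by their counts. The shares therefore do not compare like sets of genes. All shares count matches on either strand, and the motifs do not overlap each other in the windows shown.

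Of the remaining pathway lists in Cx HS21, regulators of mitochondrial gene expression were lowered in 2 of 6 and raised in 0. *Ppara*, the nuclear receptor for fatty acids, changed by -1.08 ± 0.10 (adjusted *P* = 2.32e-05) and *Ppargc1b* by -0.45 ± 0.14 (adjusted *P* = 0.0248). *Ppargc1a* did not pass the test (-0.13 ± 0.10, adjusted *P* = 0.348). Of 10 genes for the pyruvate carrier, sideroflexins and porins, 3 were lowered and 2 raised, led by *Sfxn2* (-1.26 ± 0.22, adjusted *P* = 0.00115), *Sfxn3* (0.63 ± 0.08, adjusted *P* = 0.000147) and *Sfxn1* (-0.45 ± 0.06, adjusted *P* = 0.000292), and both subunits of the pyruvate carrier did not pass the test.

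At 14 d the family had moved less. In Cx HS14, 4 members were lowered and 0 raised, against 1.18% lowered and 1.14% raised among all genes. At an unadjusted *P* below 0.05 the counts were 7 and 5. In the same comparison 5 of 9 leukocyte markers, 1 of 3 distal convoluted tubule markers and 1 of 8 collecting duct markers were raised and 2 of 10 proximal tubule markers lowered, and their part in the *Slc25* differences was not tested. The lowered members were *Slc25a34*, *Slc25a42*, *Slc25a30* (-0.57 ± 0.11, adjusted *P* = 0.0270) and *Slc25a20*. All 4 were also lowered at HS21, a comparison that shares the LS libraries. The call of *Slc25a42* held in all 10 fits that left out 1 library (adjusted *P* 0.00345 to 0.0459). The call of *Slc25a20* was lost only without Cx LS replicate 4 (adjusted *P* up to 0.0525), that of *Slc25a30* in 6 fits (0.00156 to 0.0835) and that of *Slc25a34* in 7 (0.00116 to 0.101). With Cx HS14 replicate 7 left out, 6 members were lowered, and with Cx LS replicate 4 left out, 1. Leaving out Cx HS14 replicate 10 gave 4 lowered and 0 raised. The largest ratio that did not pass was a rise of *Slc25a21* (1.07 ± 0.26, adjusted *P* = 0.0560), from 0.612, 0.518, 1.09, 1.45 and 0.726 FPKM in Cx LS to 1.69, 1.51, 2.13, 2.03 and 1.86 in Cx HS14. *Slc25a21* was called raised with DESeq2, with all 15 Cx libraries in one fit or without Cx LS replicate 4.

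Between HS14 and HS21 in the Cx, 8 members were lowered and 1 raised, against 9.69% lowered and 6.50% raised among all genes. The lowered members were *Slc25a13*, *Slc25a36l1*, *Slc25a15*, *Slc25a23*, *Slc25a44*, *Slc25a11*, *Slc25a1* and *Slc25a5*, with log2 ratios from -0.83 to -0.24, and the raised member was *Slc25a28* (0.36 ± 0.08, adjusted *P* = 0.0139). Of the markers, 6 of 10 for the proximal tubule were lowered (1 raised), and 7 of 9 for leukocytes, 1 of 6 for the thick ascending limb and 1 of 5 for the endothelium were raised, and their part was not tested. None of the 4 members lowered at HS14 was among them, and their HS21 to HS14 ratios were 0.44 ± 0.27 for *Slc25a34*, 0.30 ± 0.11 for *Slc25a42*, -0.03 ± 0.12 for *Slc25a20* and -0.18 ± 0.14 for *Slc25a30*. Only *Slc25a13* and *Slc25a28* kept the call in all 10 fits that left out 1 library. Under total-count scaling the median of all genes was 0.13, with 2084 genes raised and 644 lowered in place of 935 and 1395, and the members were 6 raised and 1 lowered. Without Cx HS14 replicate 10, 9 members were lowered and 4 raised. Libraries whose omission left fewer than 6 lowered were HS14 replicate 7 (2), 8 (1) and 9 (1) and HS21 replicate 11 (4), 12 (5), 14 (3) and 15 (3).

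In the OM no member passed the test. At HS14 the counts were 0 raised and 0 lowered, against 0.00694% and 0% of all genes, and the unadjusted counts were also 0 and 0. At HS21 they were again 0 and 0, against 0.639% and 0.131% of all genes, with 1 member at an unadjusted *P* below 0.05 (the pyrimidine nucleotide carrier *Slc25a33*, 0.41 ± 0.18, unadjusted *P* = 0.0486). No member's HS21 libraries were apart from LS, where 3.59% of all genes were. DESeq2 called 0 members in both OM comparisons as well. The OM libraries of a group spread widely, with a median SE of the members of 0.24 at HS14 and 0.18 at HS21 against 0.0964 for Cx HS21. The intervals below give the range of ratios that these libraries leave. *Slc25a13* measured 40.6, 98.1, 59.2, 54.0 and 26.9 FPKM in OM LS and 32.6, 45.2, 62.5, 52.7 and 43.7 in OM HS21, with the highest value in OM LS replicate 2. Its ratio of -0.24 ± 0.30 had a 95% interval of -0.91 to 0.44, which holds 0. The interval was -0.28 to 0.46 for *Slc25a12*, -0.39 to 0.38 for *Slc25a11*, -0.17 to 0.20 for *Slc25a5* and -0.54 to 0.05 for *Slc25a20*. Leaving out OM LS replicate 2 or OM HS14 replicate 10 gave no call either.

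The difference between the tissues in their response to 21 d of the HS diet was tested as an interaction. Of the 38 members, 1 had a lower change in OM than in Cx and 0 a higher one, against 0.217% and 0.448% of all genes. At an unadjusted *P* below 0.05 there were 2 and 6. The called member was *Slc25a43*, with an interaction of -0.97 ± 0.19 (adjusted *P* = 0.0255). Its FPKM rose in Cx as given above and measured 9.52, 6.34, 8.14, 7.58 and 10.5 in OM LS and 9.25, 7.27, 7.10, 7.60 and 6.93 in OM HS21, where the groups overlapped (-0.14 ± 0.15, adjusted *P* = 0.838). Its call was lost in 8 of 20 fits that left out 1 library (adjusted *P* 0.00363 to 0.0607), and with a replicate block, which takes same-numbered Cx and OM libraries as pairs, no member passed. For *Slc25a13* the interaction was 0.77 ± 0.33 (adjusted *P* = 0.278). Without OM LS replicate 2 that of *Slc25a13*, *Slc25a1*, *Slc25a23* and *Slc25a34* passed the test in the opposite direction, that is with a change less negative in OM than in Cx, and the count of raised members was 4.

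On the LS diet the tissues differed in 23 of the 38 members. There were 10 higher in OM and 13 lower, against 21.3% higher and 19.5% lower among all genes. Under total-count scaling the median of all genes moved to 0.27, with 5546 higher and 1842 lower in place of 3051 and 2794, and the members to 13 higher and 10 lower. Among those lower in OM, *Slc25a45* was 36.2 FPKM in Cx LS and 4.95, 12.7, 7.24, 5.91 and 4.92 FPKM in the OM LS libraries (-2.33 ± 0.25, adjusted *P* = 5.95e-05). *Slc25a25* was 76.8 and 19.4 (-1.97 ± 0.48, adjusted *P* = 0.00814), the ornithine carrier *Slc25a15* 54.3 and 23.4 (-1.20 ± 0.25, adjusted *P* = 0.00352), the mitoferrin *Slc25a37* 17.3 and 8.17 (-1.07 ± 0.18, adjusted *P* = 0.000995), the citrate carrier *Slc25a1* 83.6 and 43.2 (-0.94 ± 0.20, adjusted *P* = 0.00350) and the dicarboxylate carrier *Slc25a10* 297 and 155 (-0.92 ± 0.24, adjusted *P* = 0.0114). The carrier *Slc25a23* was 111 and 59.4 FPKM. Its log2 ratio ran from -1.06 to -0.79 in the edgeR fits that left out 1 library (adjusted *P* at most 0.00498). OM LS replicate 2 held the highest OM LS value of each member listed above as lower in OM, and these OM LS means include it. *Slc25a13* measured 40.6, 98.1, 59.2, 54.0 and 26.9 FPKM in OM LS, all but replicate 2 below the Cx LS libraries (-0.87 ± 0.28, adjusted *P* = 0.0302), and the call was lost in 5 of 10 fits that left out 1 library.

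Higher in OM were *Slc25a27* (1.64 ± 0.26), *Slc25a21* (1.54 ± 0.32), *Slc25a48* (1.07 ± 0.22), *Slc25a29* (0.87 ± 0.18), *Slc25a33* (0.80 ± 0.09), *Slc25a43* (0.70 ± 0.15), *Slc25a12* (0.63 ± 0.13) and *Slc25a38* (0.63 ± 0.17). The uncoupling protein-like *Slc25a27*, which was at 0.201 to 0.293 FPKM in Cx LS, was at 0.388 to 1.02 in OM LS. This member is low throughout, with at most 88 counts in a library, and 3 counts of it correspond to 0.0352 to 0.142 FPKM. The ADP/ATP carriers did not differ beyond their spread, with intervals of -0.26 to 0.09 for *Slc25a5* and -0.21 to 0.24 for *Slc25a4*. Under total-count scaling, however, *Slc25a4* was called higher in OM. The phosphate carrier was lower in OM (-0.40 ± 0.08, adjusted *P* = 0.00209) except under total-count scaling, where the call was lost. Genes of mitochondrial content were lower in OM in 5 of 8 and higher in 0. Proximal tubule markers were lower in OM in 8 of 10 (1 higher) and thick ascending limb markers higher in 6 of 6. Podocyte markers were lower in 4 of 4, distal convoluted tubule markers lower in 3 of 3 and adipocyte markers higher in 3 of 3. Without OM LS replicate 2, 11 members were higher and 15 lower, and without OM LS replicate 5, 10 were higher and 11 lower. With the HS14 libraries in place of the LS libraries, 8 were higher and 8 lower, and without replicate 10 of both HS14 groups 13 were higher and 11 lower.

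**Figure D3:**
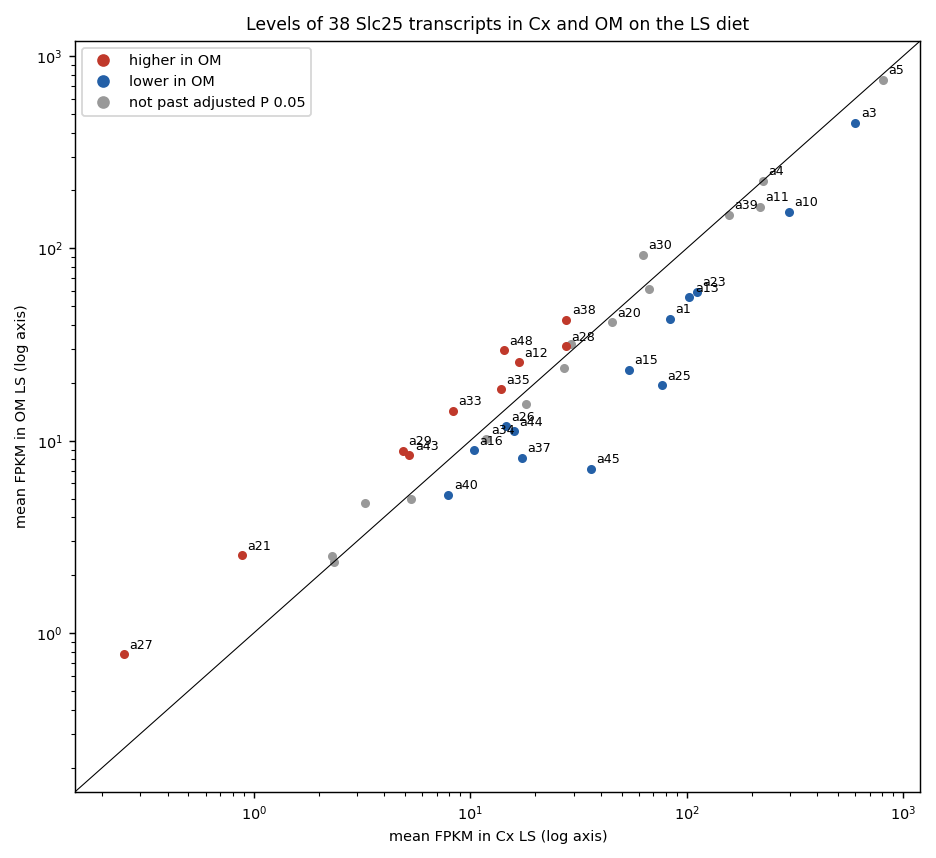
Mean FPKM of the 38 *Slc25* members in Cx LS (x axis, log) and OM LS (y axis, log), each point the mean of 5 libraries and labels such as a5 standing for *Slc25a5*, with members higher in OM in red, lower in OM in blue and others in grey. The 10 red points lie above the line of equal levels and the 13 blue points below it, and *Slc25a5*, *Slc25a3* and *Slc25a4* lie near the line at the top right.

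The Cx HS21 changes were set beside the difference between the tissues. To do so without shared libraries, the tissue ratio was taken from the HS14 libraries. Of the 18 lowered members, 15 (83.3%) had a ratio below 0, that is lower in OM, a share near the 78.7% of all lowered genes. All 7 raised members (100%) had a ratio above 0, as did 72.6% of all raised genes. Without replicate 10 of both HS14 groups, 13 of the 18 lowered members (72.2%) and 84.5% of all lowered genes were below 0, and all 7 raised members stayed above 0. The members that changed sides were *Slc25a5* and *Slc25a20*. Over the 38 members the correlation of both log2 ratios was 0.49 (Pearson) and 0.63 (Spearman), and over 14080 genes it was 0.33 and 0.44. These are descriptions across genes, which are not independent replicates and share the libraries on each axis. With all HS14 libraries, the lowered members that were not lower in OM were *Slc25a30*, *Slc25a34* and *Slc25a42*, which are 3 of the 4 members already lowered at HS14, and their lowered Cx HS14 levels enter this tissue ratio. On the LS diet the OM to Cx ratio of these was 0.57 ± 0.28 (adjusted *P* = 0.128) for *Slc25a30*, -0.21 ± 0.29 (adjusted *P* = 0.598) for *Slc25a34* and -0.18 ± 0.27 (adjusted *P* = 0.614) for *Slc25a42*, so none of the 3 passed the test there. *Slc25a30* was called higher in OM under total-count scaling or without OM LS replicate 5.

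**Figure D4:**
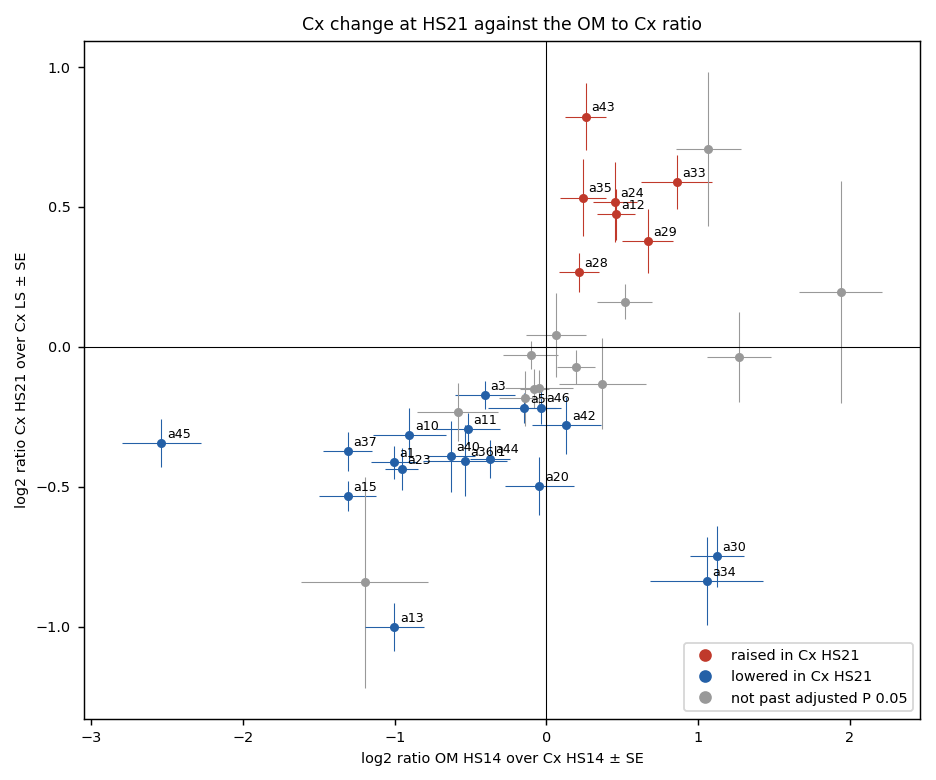
Log2 ratio of Cx HS21 over Cx LS (y axis, ± SE) against the log2 ratio of OM HS14 over Cx HS14 (x axis, ± SE) for the 38 *Slc25* members, labels such as a13 standing for *Slc25a13*, with members raised in Cx HS21 in red, lowered in blue and others in grey. All 7 red points lie to the right of 0, 15 of the 18 blue points lie to the left, and *Slc25a30*, *Slc25a34* and *Slc25a42* are the blue points at the right.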

How the data were processed

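PolyA mRNA libraries of Cx and OM (5 per tissue and diet) were analysed. Per the study's methods and the labels, the authors aligned paired reads to Rnor_6.0 with HISAT2 2.0.5, assembled with StringTie 1.3.3b and counted with featureCounts 1.5.0-p3. The deposited table holds whole-number read counts and FPKM per gene, and columns of the authors' own comparisons (fold changes and *P*-values), which were not used. FPKM gave levels, and the deposited counts gave every test. Groups came from the tissue and treatment labels. Low counts were filtered per comparison (filterByExpr), libraries scaled by TMM and log2 ratios tested with edgeR 4.0.16 (quasi-likelihood test, R 4.3.3), each comparison fitted on its own groups without covariates, with Benjamini-Hochberg adjustment over all genes and an adjusted *P* threshold of 0.05. The script was tested on simulated data. Between 60 pairs of libraries of the same group, mean squared differences were at least 7.82 times the variance of counting noise, so none was a duplicate. The shallowest library, OM HS14 replicate 10, held 5408126 counts and gives the least precise values. It was also the library with the lowest exonic share, so its values may differ in more than precision.

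Alternatives were RLE and total-count scaling, no count filter, DESeq2 1.42.0, all 15 libraries of a tissue in one fit, a replicate block and leaving out each library. Members and gene lists were chosen with earlier results of these data known. Members chosen for values were up to 12 called in each direction of Cx HS21 against LS, up to 8 in each direction of OM against Cx, up to 8 of each other comparison and, whatever their values, *Slc25a1*, *a3*, *a4*, *a5*, *a10* to *a13*, *a15*, *a20* and *a22*. Others, among them *Slc25a2*, *Slc25a14*, *Slc25a38*, *Slc25a39* and *Slc25a46*, were given values beside their substrate group. Up to 3 genes were named per pathway list. Promoters were 250 bases before the RefSeq start (GRCr8).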

Additional observations from a re-analysis of the deposited data

Results flagged for a closer look

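In 228 sets of 5 libraries (38 members in 6 groups), 21 held a library that stood apart from the other 4 by Dixon's ratio at the 95% level, where chance gives about 1 set in 20. In Cx LS these were *Slc25a46* in replicate 3 (15.8 FPKM, next 18.3), *Slc25a26* in replicate 2 (17.1, next 14.2) and *Slc25a14* in replicate 4 (1.71, next 2.46).

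In Cx HS14, replicate 10 was low in *Slc25a23* (91.5 FPKM, next 107), *Slc25a15* (35.3, next 50.9) and *Slc25a37* (11.5, next 15.8) and high in *Slc25a35* (24.0, next 16.0). This library had the lowest proximal tubule marker sum of its group, and its part in these values was not tested. Replicate 7 of the same group was high in *Slc25a34* (9.47, next 4.13) and *Slc25a14* (3.02, next 2.29) and low in *Slc25a27* (0.167, next 0.237).

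In Cx HS21 the values were *Slc25a11* in replicate 13 (204 FPKM, next 173), *Slc25a15* in replicate 12 (32.8, next 38.0), *Slc25a25* in replicate 15 (93.7, next 35.7) and *Slc25a20* in replicate 11 (41.3, next 31.4).

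In OM HS14, replicate 10, the library with the fewest counts and the lowest exonic share, was low in *Slc25a5* (326 FPKM, next 778), *Slc25a4* (105, next 238) and *Slc25a28* (21.0, next 30.2). In the same group replicate 8 was high in *Slc25a43* (10.2, next 8.62). In OM HS21, replicate 15 was high in *Slc25a25* (70.5, next 21.1) and *Slc25a34* (18.4, next 11.2), and replicate 11 in *Slc25a43* (9.25, next 7.60). Replicate 15 of HS21 thus held the highest *Slc25a25* value of its group in both tissues.

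*Slc25a43* was the member whose HS21 change differed between the tissues by the interaction test, with a difference of -0.97 (OM minus Cx, log2).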

How the results depend on the processing

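The 62 named log2 ratios past the threshold were refitted under 940 alternatives. Of these, 804 kept direction and call, 135 lost the call and 1 reversed, *Slc25a16* in OM against Cx, which was 0.037 under total-count scaling. Under total-count scaling 10 members were lowered in Cx HS21, and in HS21 against HS14 6 were raised and 1 lowered. With DESeq2, 3 were raised in Cx HS14, 2 in HS21 against HS14 and 2 in the interaction. With all 15 Cx libraries in one fit, 1 was raised in Cx HS14 and 3 in HS21 against HS14. Without a count filter, 5 were lowered in HS21 against HS14. With the HS14 libraries, 8 members were lower in OM, and this setting and the values without replicate 10 of HS14 were chosen after seeing the data. The causes were not tested.

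Leaving out 1 library gave 0 to 1 raised and 1 to 6 lowered in Cx HS14, 7 to 8 and 14 to 19 in Cx HS21, 1 to 4 and 1 to 9 in HS21 against HS14, 0 in both OM comparisons, 9 to 11 and 9 to 15 in OM against Cx, and 0 to 4 and 0 to 1 in the interaction. In Cx HS14 the lowered count was 2 without LS replicate 1 or 2 or HS14 replicate 6, 8 or 9, and 1 was raised without LS replicate 4 or HS14 replicate 6 or 7. In HS21 against HS14, 3 were raised without HS14 replicate 7 and 2 without HS21 replicate 12. The interaction lost its call without Cx LS replicate 2, 3, 4 or 5, Cx HS21 replicate 11 or 12, OM LS replicate 1 or OM HS21 replicate 15.

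Cx and OM libraries share replicate numbers. Of 15 same-numbered pairs, 12 had correlated deviations above 0.1 (range -0.11 to 0.55), and 13 of 15 correlated best with their own number, a hint from the data that the labels do not state. With a replicate block, 9 members were higher and 11 lower in OM, and in the interaction 0 were raised and 0 lowered.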

Other observations

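Outside the family, the genes of the carnitine shuttle in Cx HS14 held 2 lowered and 0 raised of 5, *Cpt2* (-0.42) and *Crat* (-0.25), and *Ucp2* was already raised (0.53 ± 0.10, adjusted *P* = 0.0209). In that comparison 5 of 9 leukocyte markers were raised as well, and their part in the *Ucp2* value was not tested. In OM HS21, 4 of 9 leukocyte markers were raised and 0 lowered, while 0 of 10 proximal tubule markers and 0 of 38 *Slc25* members passed the test. In the interaction 1 of 6 thick ascending limb markers had a lower change in OM than in Cx, and 0 of the 8 shuttle enzymes or 5 carnitine shuttle genes passed the test in either direction.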
